A study of Homo sapiens with 15 samples.

Results

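The contractile genes of smooth muscle and myofibroblasts were followed across 5 conditions of MRC-5 cells, a line of primary fibroblasts that came from the lung of a human fetus. They are 10 genes listed by name, the actins ACTA2 and ACTG2, the myosin subunits MYH11 and MYL9, and the thin-filament proteins TAGLN, CNN1, CALD1, TPM1, TPM2 and LMOD1. Each was found by its Ensembl identifier, matched to the symbol through GENCODE 44, among the 57272 genes of the count table. All 10 were among the 15799 genes kept by the filter on low counts, although MYH11 passed it with very few reads. The genes are scattered over the genome (GRCh38, GENCODE 44), ACTA2 at chr10:88935074-88991339 and ACTG2 at chr2:73892314-73919865, MYH11 at chr16:15703135-15857028 and MYL9 at chr20:36541497-36551447, TAGLN at chr11:117199370-117207464 and CNN1 at chr19:11538767-11550323, CALD1 at chr7:134744252-134970729, TPM1 at chr15:63042620-63071915, TPM2 at chr9:35681992-35690056 and LMOD1 at chr1:201896456-201946548.

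The cells were grown at 5% oxygen and carried a lentiviral vector, either the empty pWPIR-GFP (EV) or pWPIR-GFP-TRF2, which adds the telomere-binding shelterin protein TRF2. Young cells were at population doubling (PD) 30 and had expressed TRF2 for 6 days, whereas the senescent cells had been transduced before senescence and were harvested once they had stopped dividing, at PD 71 with EV and at PD 75 with TRF2. The 5 conditions, of 3 libraries each, were young EV, young TRF2, senescent EV and senescent TRF2, all with a control siRNA, and young EV cells given an siRNA against the nuclear lamina gene LMNB1 (siLMNB1). A single cell line was used, the libraries of a condition are called replicates without a statement that they came from separate cultures, and p-values measure only the spread between these libraries. By their labels, the libraries of both senescent conditions were taken over from data deposited before, and senescence cannot be told apart from that origin.

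Contractile cells pull by myosin filaments that walk along actin filaments, and phosphorylation of the myosin regulatory light chain switches the motor on. Tropomyosins, caldesmon, calponin and transgelin coat or bridge the actin filament, and leiomodin nucleates it. In lung, fibroblasts that gain these proteins during repair or fibrosis are called myofibroblasts. Transcription of many of the genes depends on serum response factor, which binds the CArG box together with myocardin or the related MRTF proteins, and on TGF-beta signalling.

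The promoters of the actin pair carry this element in a readable form, and they are shown because the pair differed in calls. ACTA2 was called in both senescence comparisons and with siLMNB1. ACTG2 was called in none of these in the fit of all libraries with the filter on low counts. RefSeq windows (GRCh38.p14) were at hand for 7 of the 10 genes, in 12 windows that start 250 bases before a transcription start. MYH11, MYL9 and TAGLN had no window. Below are the bases 130 to 41 before the start, read 5′ to 3′ on the strand of the gene, with the 10 bases of each CArG-like element in capitals. The ACTG2 stretch lies at chr2:73892878-73892967 (plus strand) and the ACTA2 stretch at chr10:88952814-88952903 (minus strand). Each gene also has longer annotated transcripts that start further upstream: the ACTG2 stretch lies in an intron of one and runs at its end into first exons of others, and the ACTA2 stretch is intronic in the longer transcripts.
ACTG2: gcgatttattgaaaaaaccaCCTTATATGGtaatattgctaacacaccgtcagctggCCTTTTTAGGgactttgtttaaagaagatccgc
ACTA2: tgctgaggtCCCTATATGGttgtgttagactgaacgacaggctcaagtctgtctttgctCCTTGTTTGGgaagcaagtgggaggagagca

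ACTG2 held 2 elements of the strict form (CC, 6 bases that are A or T, GG), starting 110 and 73 bases before the start, a form found in 1.16% of the 35116 promoter windows of the table. The 2 elements of ACTA2, starting 121 and 71 bases before the start, match when 1 of the 6 core bases may differ, a form chosen after the sequences were seen and found in 7.04% of windows. No window of CNN1, TPM1, TPM2 or LMOD1 and no window of the upstream ACTA2 start held either form, and of the 4 windows of CALD1 only 1 held the relaxed form. Searched on both strands, CATTCC, the element of TEAD factors, was present before ACTA2 (183 bases), LMOD1 (126 bases) and 2 CALD1 starts, against 11.9% of all windows. TATAAA stood 31 bases before the ACTG2 start and 233 bases before 1 CALD1 start (10.7% of all windows), and CAGAC, a SMAD half-site, before ACTA2, CNN1, TPM1 and CALD1 starts (38.0% of all windows). These are matches of letters, and the element can lie outside the window.

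Total counts ranged from 26725885 to 43116046 per library. LMNB1 read 58.6 to 61.0 CPM (counts scaled to a common library total) in young EV and 2.36 to 2.91 with siLMNB1, and TERF2, which encodes TRF2, read 21.9 to 25.5 in young EV, 128 to 307 in young TRF2 and 210 to 285 in senescent TRF2, as the labels say. All 9 fibroblast markers were read (summed level 20138 to 33683 CPM over the libraries). In contrast, 6 of 7 epithelial, 4 of 6 leukocyte and 8 of 9 striated muscle markers stayed below 1 CPM in every library. Among them were the defining EPCAM, PTPRC and MYOD1, the last at 0. The other epithelial marker was KRT5, and the epithelial sum reached 0.294 to 7.84 CPM in young EV but at most 0.928 in the other conditions. The 6 markers of dividing cells summed to 512 to 547 CPM in young EV, 253 to 256 with siLMNB1, 65.9 to 77.1 in senescent EV and 37.9 to 42.8 in senescent TRF2. In the senescent libraries the counts also leaned to GC-rich genes, by 0.46 to 0.82 on the log2 scale per 10 points of GC content, against -0.01 to 0.13 in the young ones, and the third senescent EV library leaned most, and its label cites an earlier record numbered apart from those of the other senescent libraries.

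In senescent EV cells, 6 of the 10 contractile genes rose against young EV cells, ACTA2, MYL9, TAGLN, CNN1, TPM2 and LMOD1, and none fell. Over all genes tested, 32.7% were called higher and 31.9% lower. A gene was called when its adjusted p was below 0.05 by the quasi-likelihood test of edgeR, Benjamini-Hochberg adjusted across the 15799 genes. The largest rises were those of CNN1 (3.80-fold) and LMOD1 (3.41-fold), and with MYL9 (2.00-fold) these 3 genes also passed a log2 fold change of 1, which 16.7% of all genes passed upward. MYL9 fell short of it, at 0.34, with offsets for the GC content and length of genes. All 3 senescent libraries stood above all 3 young ones for the same 6 genes, as they did for 31.9% of all genes. The median log2 fold change of the 10 genes was 0.89, beside 0.02 over all genes, and with those offsets 0.43, beside 0.01.

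In cells with TRF2, senescent cells were higher than young cells for 7 of the 10 genes, the same 6 and CALD1, against 28.2% of all genes called higher and 30.1% called lower. ACTA2, TAGLN, CNN1 and LMOD1 passed a log2 fold change of 1 (11.9% of all genes). The senescent libraries stood wholly above the young ones for 8 genes, the 7 called and MYH11, beside 34.7% of all genes. MYH11 adds no support here. In fits of only the libraries compared, it passed the filter on low counts only where the senescent TRF2 libraries, its highest, were included. The median over the 10 genes, MYH11 included, was 0.97, beside -0.02 over all genes, and with the offsets 0.75, beside 0.05. RNA from bulk cultures cannot tell more contractile cells from more contractile RNA per cell.

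With siLMNB1 in young cells, 2 of the 10 genes rose, ACTA2 and CNN1, close to the share over all genes, of which 16.4% were called higher and 16.1% lower. Both passed the log2 fold change of 0.58 that the study used for this comparison (10.3% of all genes upward). The siLMNB1 libraries lay above all young EV libraries for 6 genes, ACTA2, ACTG2, MYL9, TAGLN, CNN1 and LMOD1, beside 29.5% of all genes, and the median of the 10 genes was 0.34, beside 0.04 over all genes. This count depended on the libraries fitted: with only the 6 libraries compared, 7 genes were called, of which TPM2 was lower and ACTA2, ACTG2, MYL9, TAGLN, CNN1 and LMOD1 were higher, while 8019 of 14463 genes were then called in place of 5137 of 15799.

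For TRF2 in young cells none of the 10 genes was called by edgeR's test, while 0.177% of all genes were called in either direction. By that test 0 of the 10 had an unadjusted p under 0.05, beside 1526 of all 15799 genes. DESeq2 called 0 of the 10. In senescent cells, TRF2 went with higher ACTA2, TPM1 and LMOD1, against 4.87% of all genes called higher and 6.41% lower. In a fit of the 6 libraries alone, none of the 3 was called, with log2 differences of 0.58 for ACTA2, 0.38 for TPM1 and 0.94 for LMOD1 beside 0.58, 0.38 and 0.93 (adjusted p = 0.17 to 0.22), and 2 genes of the 14600 tested were. Whether senescence changed a gene by a different amount with TRF2 than with EV was tested as an interaction. It passed for none of the 10 genes (1.13% of all genes). By the same test, 3 of the 10 had an unadjusted p under 0.05, ACTA2, TPM1 and LMOD1, beside 2509 of all 15799 genes. DESeq2 also called 0 of the 10 genes for the interaction.

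**Figure D1:**
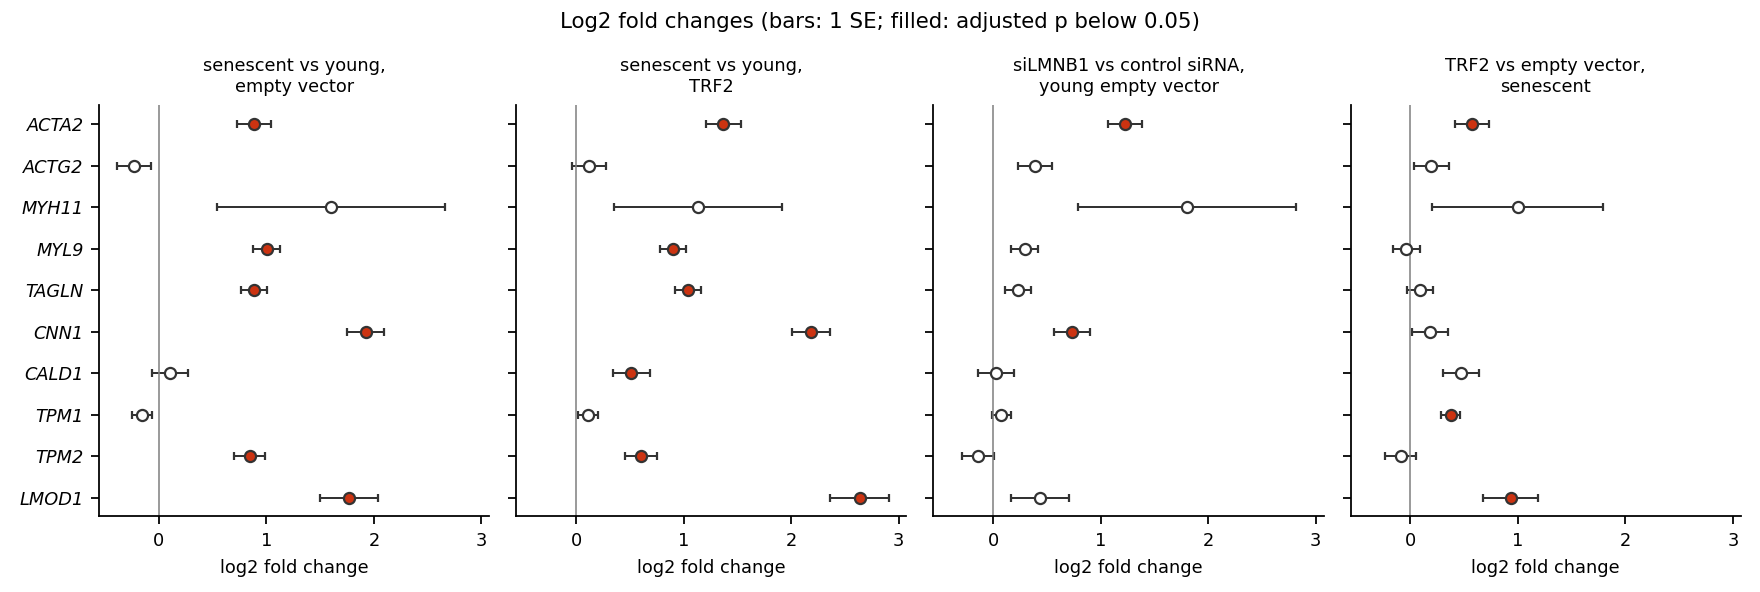
Log2 fold change (x axis, log2 scale) of each of the 10 contractile genes (rows) in 4 comparisons; bars are 1 standard error and filled points have an adjusted p below 0.05. Filled points number 6, 7, 2 and 3 from left to right, and all lie to the right of 0.

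ACTA2, alpha smooth muscle actin and the usual marker of myofibroblasts, read 39.3, 38.1 and 36.8 CPM in young EV, on library sizes scaled by edgeR's TMM method, and 42.1, 32.2 and 47.4 in young TRF2. It read 86.0, 54.3 and 70.9 in senescent EV and 103, 118 and 93.7 in senescent TRF2. With siLMNB1 it read 82.4, 82.7 and 102. No library of these last 3 conditions reached down to the young EV or young TRF2 libraries. The log2 fold change was 0.89 ± 0.16 (SE, n = 3 per condition, as throughout) in senescent against young EV cells (1.85-fold, adjusted p = 1.5e-04), 1.37 ± 0.16 with TRF2 (adjusted p = 1.9e-06) and 1.22 ± 0.16 with siLMNB1 (2.34-fold, adjusted p = 2.8e-05). In order of level, young EV and young TRF2 overlapped, and senescent EV, siLMNB1 and senescent TRF2 each overlapped the next, so that only the step from young TRF2 to senescent EV had no overlap.

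Within the senescent cells, ACTA2 with TRF2 lay above EV in all libraries, by 0.58 ± 0.16 on the log2 scale (adjusted p = 0.028). It no longer passed edgeR's test without the second senescent EV library (0.42, adjusted p = 0.089) or without the first or second senescent TRF2 library (0.59 and 0.48, adjusted p = 0.076 and 0.13).

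ACTG2 encodes gamma smooth muscle actin, the actin of visceral muscle. It read 212, 212 and 189 CPM in young EV, 178, 174 and 197 in young TRF2, and 259, 257 and 285 with siLMNB1. The senescent EV libraries, at 223, 127 and 172, spread on both sides of the young ones, and the senescent TRF2 libraries read 184, 243 and 172. ACTG2 was thus not called in either senescence comparison (-0.23 ± 0.16, adjusted p = 0.21 with EV and 0.12 ± 0.16, adjusted p = 0.53 with TRF2). With siLMNB1 its libraries lay above all others, but the log2 fold change of 0.39 ± 0.16 did not pass (adjusted p = 0.074). That change passed without the filter on low counts, and with only the 6 libraries compared (0.39, adjusted p = 7.6e-07 by edgeR's test). Without the first senescent EV library ACTG2 was called lower in senescent EV cells (-0.46, adjusted p = 0.0094).

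The coding sequences of the 2 actin genes match at 84.7% of aligned positions. The longest run of identical coding bases between them is 29, and no stretch of 100 bases of the main ACTG2 transcript occurs in a transcript of another gene, whereas 23.3% of those of ACTA2 occur in ACTA2-AS1. Of the exonic bases of ACTA2, 36.2% also belong to other genes, among them the antisense ACTA2-AS1, which held 2 to 15 counts per library, and FAS, which held 895 to 2517. The paper counted with the GeneCounts mode of STAR. Whether counting used the strand is not given in the sources used here, and how reads in the shared bases were counted was not tested.

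MYH11, the smooth muscle myosin heavy chain and the marker most particular to mature smooth muscle, was close to absent. It had 0, 0 and 6 counts in young EV, 6, 10 and 4 in young TRF2, 16, 3 and 7 with siLMNB1, 5, 11 and 2 in senescent EV and 10, 10 and 23 in senescent TRF2. Its log2 fold change with senescence in EV cells, 1.60 ± 1.06, had an adjusted p of 0.20, and no comparison called it with all libraries. At this depth a change in MYH11 was not detectable.

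MYL9, the regulatory light chain of smooth muscle and nonmuscle myosin, was among the most abundant of the 10 genes. It read 754, 758 and 723 CPM in young EV, 775, 734 and 827 in young TRF2 and 894, 846 and 996 with siLMNB1. It read 1416, 1218 and 1845 in senescent EV and 1410.1, 1602 and 1351 in senescent TRF2. Every senescent library thus lay above every young one, siLMNB1 included. The log2 fold change was 1.00 ± 0.12 with EV (adjusted p = 3.0e-06) and 0.90 ± 0.12 with TRF2 (adjusted p = 1.1e-05), and the 0.29 ± 0.12 with siLMNB1 did not pass (adjusted p = 0.080).

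**Figure D2:**
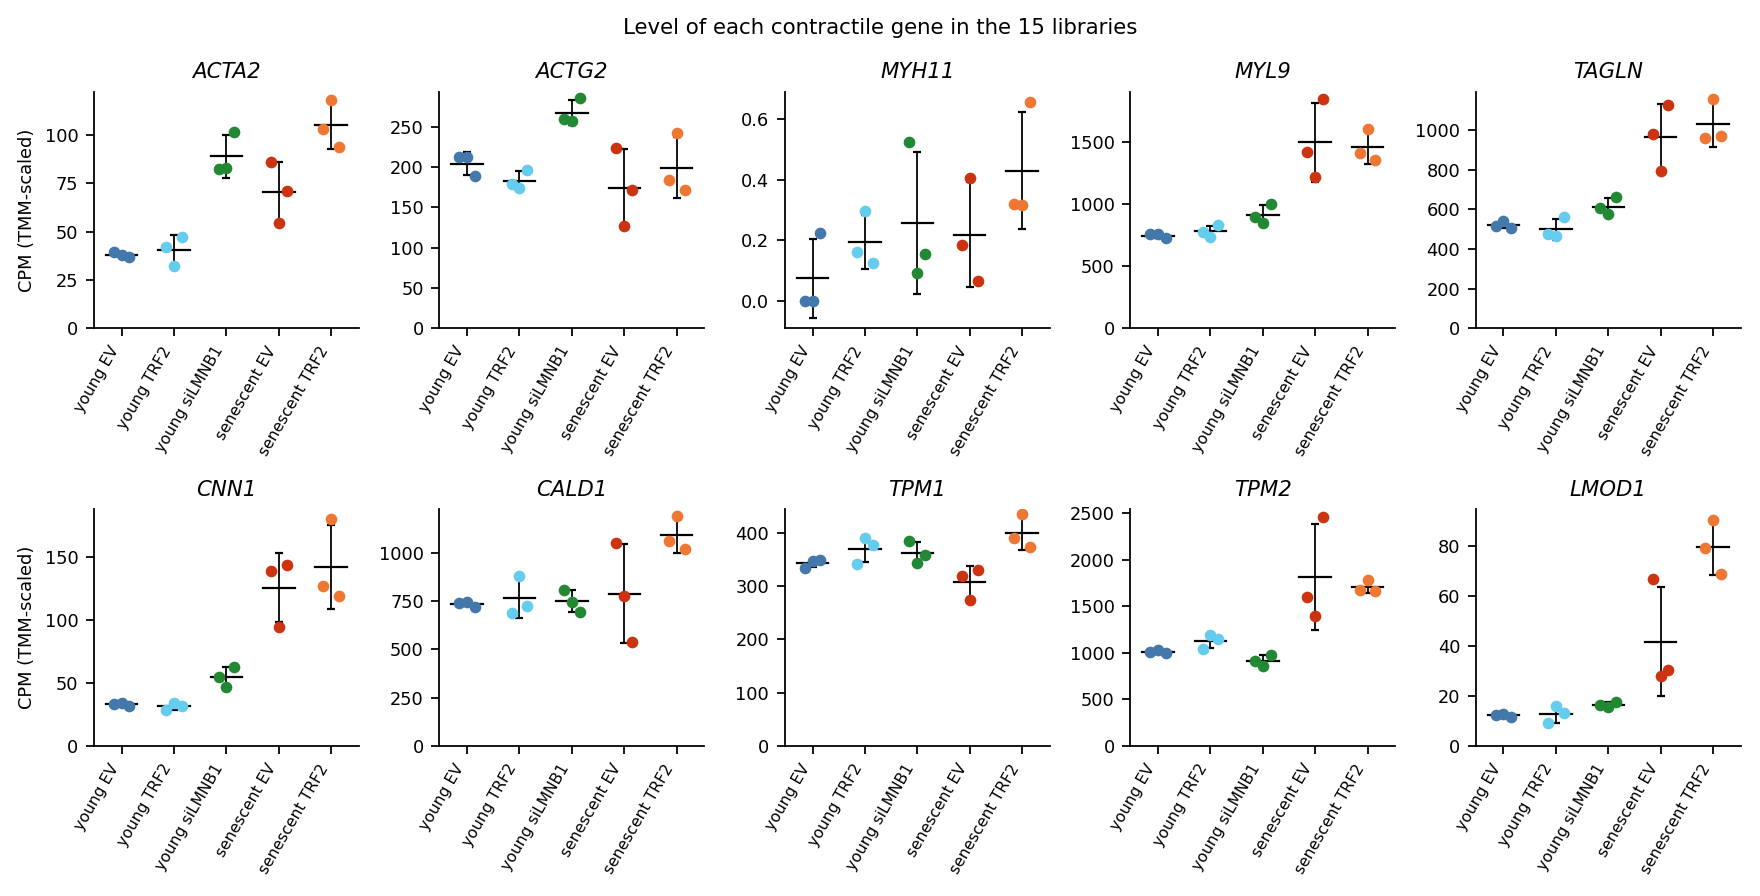
Level of each contractile gene (y axis, CPM on TMM-scaled library sizes, linear scales of their own) in the 15 libraries; points are libraries, long bars the mean and error bars 1 SD over 3 libraries. CNN1, LMOD1, MYL9, TAGLN and TPM2 show all 6 senescent libraries above the 9 young ones, whereas ACTA2 with siLMNB1 (82.4 to 102 CPM) reaches the range of the senescent libraries (54.3 to 118 CPM).

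TAGLN (transgelin, SM22-alpha) is an actin-binding protein that appears early in smooth muscle differentiation. Its libraries read 517, 543 and 508 CPM in young EV, 476, 464 and 559.7 in young TRF2 and 604, 575 and 661 with siLMNB1. Senescent EV cells read 979, 792 and 1126, and senescent TRF2 cells 959.9, 1158 and 968. The senescent libraries stood above all young libraries, by 0.89 ± 0.12 on the log2 scale with EV (adjusted p = 8.0e-06) and 1.04 ± 0.12 with TRF2 (adjusted p = 1.6e-06), while siLMNB1 gave 0.23 ± 0.12 (adjusted p = 0.15). Of the exonic bases of TAGLN, 47.8% also belong to other genes, 38.1% on its own strand with an overlapping locus that held 0 to 28 counts per library, and the rest with PCSK7 on the opposite strand, which held 1164 to 2135. Of the stretches of 100 bases of the main TAGLN transcript, 82.2% also occur in transcripts of these genes or of one other gene. Protein-coding genes with 60% or more of their exonic bases shared on the same strand had a median log2 fold change of -1.96 between senescent and young EV cells (102 genes), and those with 30% to 60%, as TAGLN, 0.17 (260 genes). The part of this overlap in the value for TAGLN was not tested.

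CNN1 encodes basic calponin, which holds back the myosin ATPase on the thin filament, and with all libraries and no offsets it had the largest senescence change in EV cells among the 10 genes. Young EV libraries read 33.0, 34.1 and 32.0 CPM and young TRF2 libraries 28.1, 34.0 and 31.7. With siLMNB1 the level was 54.6, 47.0 and 63.0. Senescent EV libraries read 139, 94.0 and 143, and senescent TRF2 libraries 127, 180.2 and 119. The levels thus formed 3 steps without overlap, young EV and TRF2, then siLMNB1, then both senescent conditions. Log2 fold changes were 1.92 ± 0.17 with EV (adjusted p = 8.2e-08), 2.18 ± 0.17 with TRF2 (4.55-fold, adjusted p = 2.1e-08) and 0.73 ± 0.17 with siLMNB1 (1.66-fold, adjusted p = 0.0035).

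LMOD1, leiomodin, nucleates actin filaments in smooth muscle, and had the largest difference between TRF2 and EV in senescent cells among the well-read genes of the 10. It read 12.2, 12.9 and 11.6 CPM in young EV, 9.13, 16.1 and 13.2 in young TRF2, and 16.4, 15.5 and 17.7 with siLMNB1. The senescent EV libraries were uneven, with 67.0 in the first against 28.0 and 30.2 in the others, and the senescent TRF2 libraries read 79.3, 90.7 and 68.7. Senescence changed LMOD1 by 1.77 ± 0.27 with EV (adjusted p = 2.7e-05) and 2.64 ± 0.27 with TRF2 (6.22-fold, adjusted p = 4.3e-07). Between TRF2 and EV in senescent cells it differed by 0.93 ± 0.25 (adjusted p = 0.028; 0.71, adjusted p = 0.090, without the second senescent EV library and 1.45 without the first), and the interaction of 0.87 ± 0.37 did not pass (adjusted p = 0.27). Without the first senescent EV library the interaction was 1.39 and passed (adjusted p = 0.0010 with edgeR's test), as did those of ACTA2 (0.66, adjusted p = 0.046) and CALD1 (0.68, adjusted p = 0.021). With siLMNB1 the change of 0.44 ± 0.27 did not pass (adjusted p = 0.23).

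The tropomyosins, which lie along the actin filament and set myosin's access to it, did not move as a pair. TPM2 was the most abundant of the 10 genes per length in young EV and read 1010.0, 1029 and 994 CPM. It read 1042, 1185 and 1142 in young TRF2 and 916, 858 and 974 with siLMNB1. In senescent EV cells it read 1595, 1390.4 and 2458 and in senescent TRF2 cells 1675, 1777 and 1661, so the senescent libraries stood above all young ones. The third senescent EV library was far above its fellows. TPM2 rose by 0.84 ± 0.15 with EV (adjusted p = 1.1e-04) and 0.60 ± 0.15 with TRF2 (adjusted p = 0.0022), and without the third library by 0.54 with EV (adjusted p = 3.0e-06).

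TPM1 was not called in 3 of the comparisons, although its senescent EV libraries all lay below its young EV libraries (335, 348 and 349 CPM). Its lowest and highest libraries over the 5 conditions were 274 and 436 CPM, and its log2 fold changes were -0.16 ± 0.09 in senescence with EV (adjusted p = 0.13), 0.11 ± 0.09 with TRF2 (adjusted p = 0.30) and 0.08 ± 0.09 with siLMNB1 (adjusted p = 0.555). Without the third senescent EV library the change with EV was -0.23 and was called lower (adjusted p = 0.016). It was called higher with TRF2 than with EV in senescent cells, by 0.38 ± 0.09 (adjusted p = 0.015), with libraries at 390.3, 436 and 373 against 319, 274 and 331 CPM. That call was lost without the second senescent TRF2 library (0.31, adjusted p = 0.088) and with offsets for GC content and length (0.25, adjusted p = 0.16).

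CALD1, caldesmon, ties actin to myosin and tropomyosin and is made in nonmuscle cells too. It read 742, 745 and 720.1 CPM in young EV, 686, 878 and 725 in young TRF2 and 806, 747 and 695 with siLMNB1. The senescent EV libraries, at 1051, 778 and 537, had a wide spread, with the first the highest and the third the lowest. Senescent TRF2 libraries read 1058, 1192 and 1021. The change with EV was 0.10 ± 0.17 (adjusted p = 0.62) and with TRF2 0.52 ± 0.17 (adjusted p = 0.015, and 0.053 to 0.072 without the first or the third young TRF2 or the second senescent TRF2 library). Without the third senescent EV library the change with EV was 0.29 and was called (adjusted p = 0.024).

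Levels were compared between genes only per length, as CPM per kilobase of merged exons (RPKM). In young EV cells TPM2 led with 318 ± 5.45 RPKM (SD, n = 3), followed by MYL9 (265 ± 6.74), TAGLN (79.8 ± 2.81), CALD1 (75.2 ± 1.40), ACTG2 (53.6 ± 3.60), TPM1 (23.4 ± 0.538), CNN1 (11.6 ± 0.361), ACTA2 (6.76 ± 0.228), LMOD1 (3.12 ± 0.168) and MYH11 (0.0042 ± 0.0073). No neighbours in this order overlapped. The order rests on the length used: merged exons hold 14700 bases for TPM1 and 5628 for ACTA2, and their main transcripts 1217 and 1349. An order by main transcripts was not made. ACTG2 thus stood above ACTA2 in these fibroblasts, in every condition. In senescent EV cells the order by merged exons changed in a single place, CNN1 (44.2 ± 9.64 RPKM) passing TPM1 (21.0 ± 2.05). There 4 pairs of neighbours overlapped, TPM2 and MYL9, CALD1 and ACTG2, ACTG2 and CNN1, and ACTA2 and LMOD1. Together the 10 genes took 0.355% to 0.373% of the counts in young EV libraries, 0.395% to 0.438% with siLMNB1, 0.480% to 0.648% in senescent EV and 0.565% to 0.651% in senescent TRF2.

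The rises were not independent of the GC content of the genes, which ranged from 40.6% (CALD1) to 60.4% (MYL9) over merged exons. Offsets for GC content and length, fitted by loess in each library, lowered the senescence change with EV to 0.34 for MYL9 (adjusted p = 0.0025), 0.37 for TAGLN (adjusted p = 0.0051) and 0.28 for TPM2 (adjusted p = 0.012). CNN1 went from 1.92 to 1.38 and LMOD1 from 1.77 to 1.47. ACTA2, at 45.0% GC, gave 1.05 and CALD1 0.48, which was then called (adjusted p = 8.3e-04). With TRF2 the offsets gave 1.90 for CNN1, 2.48 for LMOD1, 1.53 for ACTA2, 0.82 for CALD1, 0.69 for TAGLN, 0.53 for MYL9 and 0.31 for TPM2. All 7 genes were called higher with the offsets in both senescence comparisons. Over all 15799 genes, the offsets left 4467 called higher with EV and 4694 with TRF2. With siLMNB1 the offsets gave 1.16 for ACTA2 and 0.60 for CNN1, both called, and -0.26 for TPM2, then called lower (adjusted p = 0.025). Over all genes, 2385 were then called higher and 3842 lower.

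**Figure D3:**
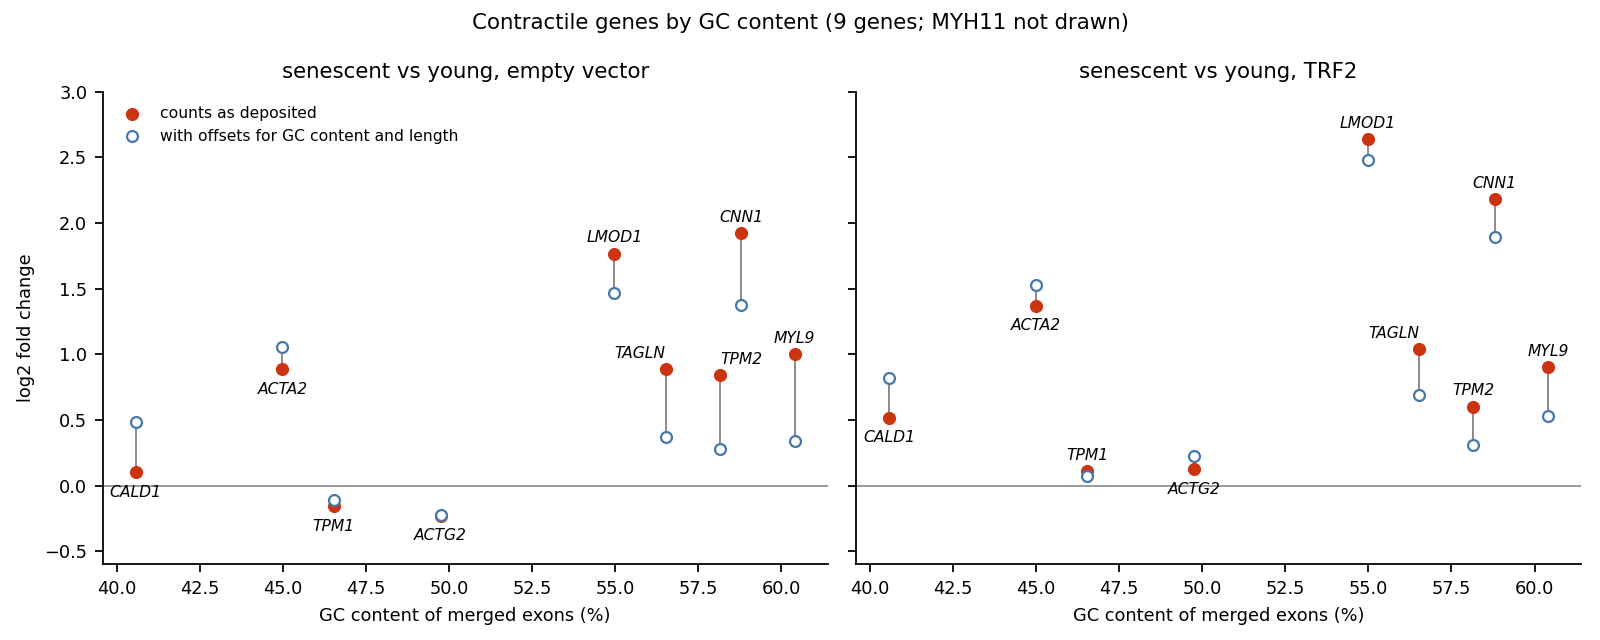
Log2 fold change between senescent and young cells (y axis, log2 scale) against the GC content of merged exons (x axis, %) for 9 contractile genes, with EV on the left and TRF2 on the right; filled points are from the counts as deposited and open points with offsets for GC content and length. TAGLN, TPM2, CNN1 and MYL9 at 56.5% to 60.4% GC drop with the offsets, as does LMOD1 at 55.0%. CALD1 and ACTA2 at 40.6% and 45.0% move up.

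The closest patterns to ACTA2 and to TAGLN were searched among 8843 other protein-coding genes with a mean of at least 10 CPM, by the root mean square difference of log2 condition means, each centred on its own average over the 5 conditions. Nearest to ACTA2 were STOM (0.11 on the log2 scale), PSD3 (0.12), PDCD4 (0.14), CAND2 (0.14) and CLSTN3 (0.16). STOM read 342 CPM in young EV, 702 with siLMNB1, 610 in senescent EV and 945 in senescent TRF2. Nearest to TAGLN were JMJD8 (0.038), FSTL3 (0.038), FZD2 (0.044), PLXNA1 (0.045) and GNA11 (0.051), with MYL9 ninth (0.057) and TPM2 at rank 856 (0.20). ACTA2 itself was at rank 2724 for TAGLN (0.37) and TAGLN at rank 335 for ACTA2, at the same distance. The log2 fold changes of the pair were 0.89 and 0.89 in senescence with EV, 1.37 and 1.04 with TRF2, and 1.22 and 0.23 with siLMNB1. MYL9 and TAGLN are GC-rich genes, and the part of the GC trend in their likeness was not tested.

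Related lists were counted beside all genes, of which 32.7% were called higher and 31.9% lower in senescent EV cells. The shares were 28.2% and 30.1% in senescent TRF2 cells, and 16.4% and 16.1% with siLMNB1. With the offsets, 4467 of 15799 genes were called higher and 4603 lower in senescent EV cells, and 4694 and 4050 in senescent TRF2 cells. No difference between a list and other genes was tested. Of 21 cytoskeletal paralogs of the contractile genes, 17 were tested, and in senescent EV cells 2 rose and 9 fell, with a median log2 fold change of -0.29. In senescent TRF2 cells 4 rose and 4 fell (median 0.04). TMOD1, a tropomodulin that caps the pointed end of actin filaments, rose by 2.54 ± 0.18 (adjusted p = 5.4e-09), from 2.71 to 15.7 CPM in the condition means. TMOD2, of the same family, rose by 1.01 ± 0.16 in senescence (adjusted p = 4.3e-05) but fell by 2.38 with siLMNB1 (SE 0.17, adjusted p = 7.8e-08), from 33.4 to 6.42 CPM. TAGLN3 was called lower (-1.39 ± 0.59, adjusted p = 0.048) at under 1 CPM in each condition mean, and was not called without the third senescent EV library (adjusted p = 0.073). With siLMNB1, 1 of the 17 rose (TMOD1, 1.11 ± 0.18, adjusted p = 2.4e-04) and 5 fell.

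Partners of contraction and adhesion went both ways. Of the 24 tested of 25, 6 rose and 6 fell in senescent EV cells (median -0.03), which the offsets turned to 3 and 13 (median -0.30). In senescent TRF2 cells 12 rose and 4 fell (median 0.32; 7 and 6 with the offsets), and with siLMNB1 1 rose and 4 fell. PGM5, which binds dystrophin and utrophin at adhesions, rose by 3.33 ± 0.23 (adjusted p = 3.7e-09), from 1.27 to 12.8 CPM. PDLIM3, a Z-disc adaptor, was lower by -1.74 ± 0.25 (adjusted p = 1.5e-05), as was desmin, DES, at under 1 CPM in each condition mean (-1.52 ± 0.55, adjusted p = 0.023). With siLMNB1, the integrin ITGA8 fell by 1.01 (SE 0.18, adjusted p = 3.8e-04) and PDLIM3 by 0.65 (SE 0.23, adjusted p = 0.039).

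Of 23 regulators of the contractile programme, all tested, 5 rose and 8 fell in senescent EV cells (median -0.14), and 5 rose and 4 fell with siLMNB1. Senescent TRF2 cells had 7 higher and 6 lower (median -0.05). MYOCD, myocardin, the coactivator of serum response factor in smooth muscle, fell by 2.04 (SE 0.24, adjusted p = 1.8e-06), from 6.57 to 1.62 CPM, in the same libraries in which CNN1 and LMOD1 rose. With the offsets MYOCD fell by 1.95 (adjusted p = 4.2e-07). PPP1R12C, a myosin phosphatase targeting subunit, rose by 1.59 ± 0.13 (adjusted p = 2.8e-08), which the offsets brought to 0.59 (adjusted p = 6.1e-06). PPP1R14A, an inhibitor of that phosphatase, was lower (-1.44 ± 0.46, adjusted p = 0.011), at a low level, from 1.16 to 0.418 CPM. With siLMNB1 the largest changes were a fall of TEAD1 by 1.16 (SE 0.22, adjusted p = 8.1e-04) and a rise of PPP1R12B by 1.01 ± 0.18 (adjusted p = 3.9e-04), while MYOCD did not pass (0.48 ± 0.21, adjusted p = 0.085).

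Of 24 genes of the TGF-beta pathway, 11 rose and 7 fell in senescent EV cells. Their median of 0.21 was turned by the offsets to -0.07 (9 higher and 7 lower). Senescent TRF2 cells had 12 higher and 4 lower (median 0.33). LTBP3, which stores latent TGF-beta in the matrix, rose by 2.66 ± 0.10 (adjusted p = 3.5e-12), the decoy receptor BAMBI by 1.71 ± 0.10 (adjusted p = 6.7e-10) and the induced matrix protein TGFBI by 1.67 ± 0.08 (adjusted p = 2.6e-11). With the offsets LTBP3 gave 1.81, BAMBI 1.79 and TGFBI 1.56. With siLMNB1 5 rose and 4 fell, with TGFB2 up by 0.98 ± 0.33 (adjusted p = 0.033) and LTBP4 by 0.87 ± 0.14 (adjusted p = 1.9e-04).

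Among 11 YAP/TAZ targets, 1 rose and 7 fell in senescent EV cells (median -0.50), and 3 rose and 2 fell with siLMNB1. Senescent TRF2 cells had 3 higher and 3 lower (median -0.13). CCN2, connective tissue growth factor, fell by 1.17 (SE 0.15, adjusted p = 3.9e-06) and NT5E, the ectonucleotidase CD73, by 1.04 (SE 0.14, adjusted p = 9.7e-06), while the muscle ankyrin repeat gene ANKRD1 rose by 1.15 ± 0.25 (adjusted p = 6.7e-04). ANKRD1 rose by 2.54 ± 0.24 with siLMNB1 (adjusted p = 9.4e-07), from 1.33 to 7.77 CPM, and the receptor kinase AXL fell by 1.22 (SE 0.08, adjusted p = 3.5e-08).

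Of the matrix and surface genes of myofibroblasts, in senescent EV cells 5 of 16 rose and 10 fell (median -0.54), and with the offsets 1 rose and 10 fell. Senescent TRF2 cells had 4 higher and 7 lower without the offsets (median -0.16). POSTN, periostin, fell by 4.0 on the log2 scale (SE 0.16, adjusted p = 6.6e-12), from 64.4 to 4.04 CPM, and N-cadherin, CDH2, fell by 2.30 (SE 0.12, adjusted p = 7.8e-11). COMP was called higher (2.43 ± 0.69, adjusted p = 0.0057) at under 1 CPM in each condition mean, and was not called with the offsets (1.60, adjusted p = 0.058). With siLMNB1, 5 rose and 4 fell, and POSTN rose by 2.27 ± 0.14 (adjusted p = 2.0e-08), to 312 CPM, where LRRC15 fell by 2.02 (SE 0.17, adjusted p = 3.1e-07).

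**Figure D4:**
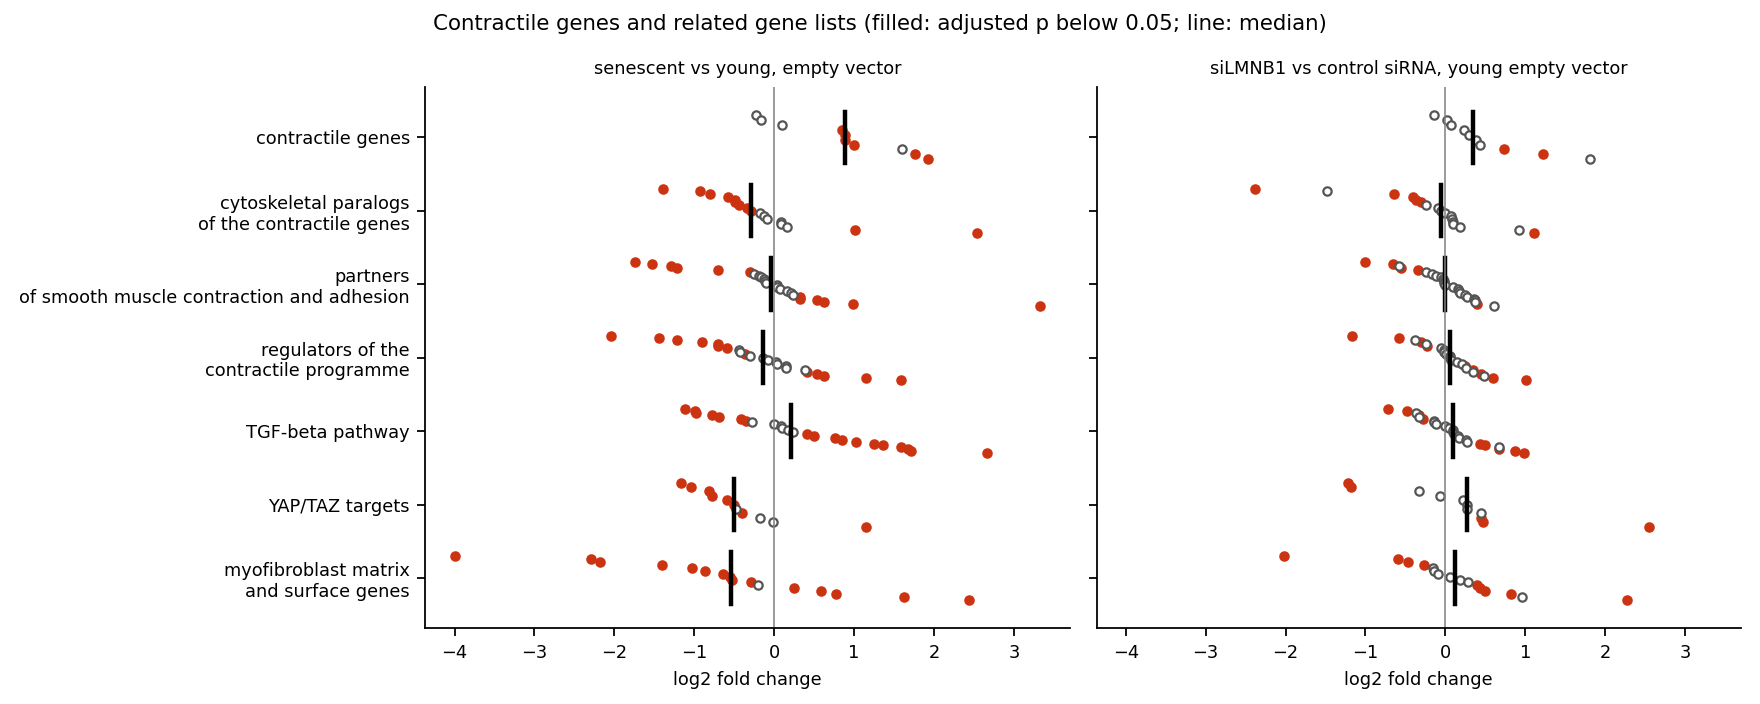
Log2 fold changes (x axis, log2 scale) of the contractile genes and of the tested genes in 6 related lists (rows), for senescent against young EV cells (left) and siLMNB1 against control siRNA (right); each point is a gene, filled when its adjusted p is below 0.05, and the line is the median. On the left the median of the contractile genes is 0.89 and that of the matrix and surface genes -0.54; on the right they are 0.34 and 0.12.

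The list of vascular smooth muscle and pericyte markers, which overlaps the lists above in MYOCD, DES and KCNMB1, was also counted. Of the 8 tested of 10, 3 were higher and 5 lower in both senescence comparisons, with medians of -0.99 with EV and -0.86 with TRF2, and DES, CASQ2 and KCNMB1 stayed below 1 CPM in every library. Its summed level was 673 to 721 CPM in young EV and 842 to 1017 in senescent EV. The lists of dividing cells fell in full, 6 of 6, in senescent EV, senescent TRF2 and siLMNB1 cells against their young controls, and the part of arrested growth in the changes of the contractile genes was not tested.

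For TRF2 against EV in senescent cells, 4.87% of all genes were called higher and 6.41% lower. Called higher were 5 of 17 cytoskeletal paralogs with none lower, 7 of 24 partners with 2 lower, 4 of 23 regulators with 1 lower, 5 of 24 TGF-beta genes with 1 lower, 5 of 11 YAP/TAZ targets with 1 lower, 4 of 16 matrix and surface genes with 1 lower and 8 of 9 fibroblast markers with none lower. In the fit of the 6 libraries alone, 0 genes of any of these lists were called. MYOCD was higher by 0.95 ± 0.25 (adjusted p = 0.023) and ITGA8 by 1.50 ± 0.17 (adjusted p = 1.4e-04). In the 6-library fit neither was called (adjusted p = 0.22 and 0.066), and without the third senescent EV library MYOCD gave 0.63 (adjusted p = 0.050). This comparison shares its libraries with both senescence comparisons, the young EV libraries serve senescent EV, siLMNB1 and young TRF2 alike, and these senescent cells also differed in PD (75 against 71). With the offsets the split of calls over all genes went from 770 higher and 1012 lower to 1381 higher and 1107 lower, and for siLMNB1 from 2586 and 2551 to 2385 and 3842.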

How the data were processed

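RNA-seq of 15 MRC-5 libraries was analysed from 1 table of gene counts. The deposited counts are unnormalised whole numbers of reads per Ensembl gene, which the authors made after trimming with Trimmomatic and alignment with STAR to GRCh38, per the labels and the study's methods; the annotation release and the strand setting of the counting are not given in the sources used here. GENCODE 44 gave symbols, positions, exon length and GC content, and 324 genes of the table were absent from it.

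The groups are those of the labels; the PD of the senescent cells and the time of TRF2 expression come from the study's methods. A model of all 15 libraries, with 1 mean per condition, was fitted in edgeR 4.0.16 (R 4.3.3) after TMM scaling and filterByExpr, and tested by quasi-likelihood with p-values adjusted by Benjamini-Hochberg across the 15799 genes that passed. Every adjusted p in the text comes from that test or, where stated, from it under another setting. Each SE of a log2 fold change is the size of the change divided by the square root of that test's F value. It thus rests on the spread over all 15 libraries fitted, not only those compared. The script was tested on simulated data. Alternatives were DESeq2 1.42.0, its size factors in edgeR, no filter, a replicate block, loess offsets for GC content and length (span 0.3), only the libraries compared, a fold change threshold, and leaving out each library. The replicate block together with the offsets was added after the data were seen.

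The 10 genes and all lists were chosen with earlier results of these data known. From each of the 6 related lists (cytoskeletal paralogs, partners of contraction and adhesion, regulators, TGF-beta pathway, YAP/TAZ targets, matrix and surface genes), the called genes outside the 10 with the largest change are named, up to 3 for senescence with EV and up to 2 for siLMNB1; other genes named, such as ITGA8 and MYOCD with TRF2, were chosen after their values were seen. Of the 8 marker lists, those of endothelium and of senescence are reported here: endothelial markers summed to 35.1 to 59.8 CPM in young and 73.7 to 111 in senescent libraries, with PECAM1 and CDH5 below 1 CPM throughout, and of 5 senescence genes 4 rose and LMNB1 fell in senescent EV cells. No pair of libraries was a duplicate. Depth limits MYH11 most.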

Additional observations from a re-analysis of the deposited data

How the results depend on the processing

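Of the 10 contractile genes, 6 were called in senescent EV cells with all libraries, 3 with the fold change threshold and 6 to 8 when 1 library was left out. In senescent TRF2 cells the numbers were 7, 4, and 6 to 7. With siLMNB1 2 were called, 5 without the filter on low counts, 7 with only the libraries compared, and 2 to 3 when 1 library was left out. For TRF2 in young cells none was called under any alternative. For TRF2 in senescent cells 3 were called, 0 with only the libraries compared and 0 with the fold change threshold, and 0 to 5 when 1 library was left out: 5 without the first senescent EV library, 1 without the second, 1 without the first senescent TRF2 library and 0 without the second. For the interaction 0 were called, 1 without the filter (LMOD1), and 0 to 3 when 1 library was left out. Of 837 values of single genes under the alternatives, 30 had the other sign, none of them called in either fit, among them CALD1 in senescent EV cells (-0.17 without the first senescent EV library) and MYL9 and TPM2 for TRF2 in senescent cells (0.20 and 0.13 with the offsets). The cause of these differences was not tested. With only the libraries compared, MYH11 had no value in 3 of the comparisons. It was called without the third young EV library, against libraries at 0 counts. ACTA2, CNN1, LMOD1, MYL9, TAGLN and TPM2 were called in senescent EV cells under all 13 alternatives other than the fold change threshold. The same held for ACTA2 and CNN1 with siLMNB1. Same-numbered libraries correlated at -0.0945 to 0.201 in their deviations from the condition means. With 3 libraries per condition this cannot decide whether the replicate numbers paired the samples. With the replicate block the counts of members called were 6, 7, 2, 0, 3 and 0, as without it, and 10225 of all genes were called in senescent EV cells against 10217.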
